A study of Mus musculus with 12 samples.

Results

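The genes described here are 10 that mark the surface mucous cell, or pit cell, of the mouse stomach: the secreted mucin gene Muc5ac, the gastrokine genes Gkn1 and Gkn2, the protease genes Ctse, Capn8 and Capn9, the surface protein gene Psca, the keratin gene Krt20, the transcription factor gene Foxq1 and the fucosyltransferase gene Fut2. They were chosen by gene symbol, and every probe set annotated to 1 of these symbols was taken, which gave 13 probe sets among the 22626 tested, or 10 of 12393 genes. On this array type several short probes against a transcript are read together as a probe set, which gives a brightness (intensity) in arbitrary units. Gkn1, Ctse and Capn8 each had 2 probe sets, and the other members had 1.

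RNA of scraped fundic mucosa, in which acid is made, was measured on 12 one-colour arrays, 3 in each of 4 groups. The groups were gastrin-CCK double knockout mice, gastrin knockout mice infused with gastrin for 1 week, gastrin knockout mice infused with saline for 1 week, and wild-type mice. Every knockout group therefore lacked the gastrin gene, and the double knockout also lacked the gene for cholecystokinin (CCK). The double knockout and the wild type were not described as infused, so that infusion differs along with genotype wherever either is set against an infused group. The labels name the saline-infused knockouts as males 2 months old, and give no sex or age for the other groups. About 2 to 4 wild-type mice were dissected per the labels. Nothing there says that the 3 samples of a group are separate animals, so the p-values cover the spread between samples alone, and part or all of it may be technical.

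Surface mucous cells line the gastric pits and the luminal surface of the stomach, where they are replaced continually from progenitors deeper in the gland. They secrete a gel of Muc5ac mucin, bicarbonate and small stabilising peptides that shields the epithelium from acid and pepsin. Gastrin, the hormone of antral G cells, is known chiefly for driving histamine release from enterochromaffin-like cells and acid secretion by parietal cells, and for stimulating growth of the fundic mucosa.

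RefSeq promoters are shown for the brightest members, which are also neighbours in the genome (Gkn1 and Gkn2), and for the member called in 2 comparisons both on the deposited scale and after quantile normalization (Krt20). Of the 10 members, 5 matched the RefSeq promoter table (Gkn1, Gkn2, Krt20, Capn8 and Capn9, mouse build GRCm38.p6). Each sequence holds the 250 bases before the annotated start site, 5′ to 3′ on the gene's strand, and capitals mark matches to the motifs named below.
Gkn1, chr6:87350916-87351165, minus strand: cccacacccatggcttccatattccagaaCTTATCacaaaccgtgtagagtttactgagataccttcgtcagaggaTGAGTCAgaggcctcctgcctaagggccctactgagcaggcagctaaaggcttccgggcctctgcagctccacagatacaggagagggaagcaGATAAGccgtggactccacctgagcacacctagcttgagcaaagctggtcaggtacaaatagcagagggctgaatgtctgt
Gkn2, chr6:87373115-87373364, plus strand: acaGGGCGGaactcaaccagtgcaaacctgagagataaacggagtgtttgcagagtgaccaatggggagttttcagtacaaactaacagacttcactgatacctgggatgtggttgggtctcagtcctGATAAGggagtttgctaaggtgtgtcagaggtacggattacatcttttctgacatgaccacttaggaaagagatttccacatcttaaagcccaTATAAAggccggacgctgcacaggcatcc
Krt20, chr11:99438154-99438403, minus strand: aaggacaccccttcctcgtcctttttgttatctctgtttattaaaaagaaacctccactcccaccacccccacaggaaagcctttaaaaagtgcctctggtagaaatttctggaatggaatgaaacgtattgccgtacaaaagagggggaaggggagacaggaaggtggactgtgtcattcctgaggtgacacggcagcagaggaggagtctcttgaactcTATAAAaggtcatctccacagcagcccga

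The motifs were searched on both strands. The TATA box was searched as TATAAA. The core bound by zinc-finger factors of the GATA family was searched as GATAAG. The forkhead motif was searched as TGTTTAC, the AP-1 motif was searched as TGANTCA, and the GC box was searched as GGGCGG. No match overlapped another. GATAAG matched the Gkn1 promoter 2 times, at -221 on the minus strand and at -81, and the Gkn2 promoter 1 time, at -122, where 6.548% of the 32851 promoters of this length hold a match. TATAAA began at -29 in both Gkn2 and Krt20, against 12.37% of all promoters with a match anywhere in the window. Gkn1 had TGANTCA at -174, as did Capn8 at -106 (6.749% of promoters), and Gkn2 had GGGCGG at -247 (32.74%). TGTTTAC (3.166%) matched none of the 5 windows, and Capn9 held none of the motifs. A match is a string of letters, and binding was not measured. Gkn1 and Gkn2 are neighbours on chromosome 6, with 0 genes listed between them.

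The arrays were alike at the centre and differed at the bright end, which bears on most of these genes. Array medians lay between 403 and 421, and the Pearson r of 2 replicates over all probe sets was 0.955 at the lowest and 0.973 at the highest. The brightest probe set read 65365 to 71514 on the double-knockout arrays, and 102282 to 113441 in gastrin-infused knockouts, 88899 to 108556 in saline-infused knockouts and 92582 to 110146 in wild type. The mean of the 100 brightest probe sets was 84.5 to 91.3 times the array median in the double knockout, and 111 to 134 times on the other 9 arrays. Gast, which encodes gastrin, read -64, -35 and -162 in the double knockout, -72, -34 and -43 in gastrin-infused knockouts, 37, -8 and 31 in saline-infused knockouts and 596, 318 and 823 in wild type. Cck read 40, 54 and 130 in the double knockout and 17, 98 and 48 in wild type, within or near the noise (67 to 96, the lowest percentile of each array with its sign turned), so it checks nothing about that deletion. Of the fundic markers, the proton pump gene Atp4a read at least 35107 and the pepsinogen gene Pgc at least 57602 on every array.

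Muc5ac, Gkn1, Gkn2, Psca and the brighter probe set of Ctse were among the 25 brightest probe sets of the table by mean intensity, and on the deposited scale they were lower in the double knockout than in either other group it was tested against. These 6 probe sets stood at 0.62 to 0.70 times the saline-infused mean and 0.63 to 0.72 times the wild-type mean. The other 19 of the 25 brightest were also all lower in the double knockout. After quantile normalization, which gives every array the same set of values, 0 of the 6 passed by limma in either comparison. At an unadjusted p under 0.05 there were then 2 against wild type (Muc5ac and the dimmer Gkn1 probe set) and 1 against the saline-infused knockout (Muc5ac), where 20.3% and 22.1% of all probe sets had such a p in these comparisons. The 6 ranked between 1 and 34 on every array. Giving all arrays the same values therefore removes any fall that the bright end shares, and these counts cannot measure such a fall.

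Muc5ac encodes the gel-forming mucin of the pit cell. It read 44849, 44461 and 41745 in the double knockout, 70722, 63527 and 57528 in gastrin-infused knockouts, 72491, 75499 and 63430 in saline-infused knockouts and 71033, 74438 and 62283 in wild type. The 3 double-knockout arrays lay below the other 9, and the other groups overlapped. The log2 fold change of the double knockout was -0.66 ± 0.10 (SE, 3 arrays a side, adjusted p = 0.0145 by limma) against wild type and -0.69 ± 0.10 (adjusted p = 0.0096) against the saline-infused knockout. With 1 array left out the call was lost against wild type without wild-type replicate 1 (-0.64, adjusted p = 0.0505), and it passed in each of the 6 such fits against the saline-infused knockout. On the quantile-normalized scale the means were 56101 ± 3459 in the double knockout, 60053 ± 3599 in gastrin-infused knockouts, 64577 ± 2119 in saline-infused knockouts and 64871 ± 1818 in wild type (SD, n = 3 each). The fold changes there were -0.21 ± 0.07 (adjusted p = 0.119) against wild type and -0.20 ± 0.07 (adjusted p = 0.113) against the saline-infused knockout, still with no overlap between the groups. By rank on its array, which no scaling of an array alters, Muc5ac stood at 16, 22 and 25 in the double knockout, 14, 15 and 20 in gastrin-infused knockouts, 14, 11 and 13 in saline-infused knockouts and 11, 13 and 13 in wild type.

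The gastrokines are small secreted proteins of the gastric surface epithelium, stored with mucin, and their loss is common in gastric cancer. Gkn2 was the brightest probe set of the table and read 64445, 68930 and 70898 in the double knockout, 106789, 102282 and 102643 in gastrin-infused knockouts, 108556, 107052 and 86282 in saline-infused knockouts and 95025, 110146 and 88199 in wild type. The brighter Gkn1 probe set read 56303, 62735 and 64669 in the double knockout, 99403, 89996 and 96241 in gastrin-infused knockouts, 98205, 97568 and 84323 in saline-infused knockouts and 90338, 100607 and 84820 in wild type. Both genes were lowest on the 3 double-knockout arrays, and the remaining 3 groups overlapped. Against wild type the log2 fold change of the double knockout was -0.52 ± 0.11 for Gkn2 (adjusted p = 0.0373) and -0.58 ± 0.09 for this Gkn1 probe set (adjusted p = 0.0157). The dimmer Gkn1 probe set, which in the maker's naming holds probes that can also match other transcripts, gave -0.60 ± 0.11 (adjusted p = 0.0217). With any 1 of the 6 arrays left out the Gkn2 call was lost (adjusted p between 0.0507 and 0.108). The brighter Gkn1 probe set lost its call without double-knockout replicate 1 (adjusted p = 0.0522), and the dimmer one without that array, wild-type replicate 1 or wild-type replicate 2 (adjusted p up to 0.0661). After quantile normalization the values were 0.04 ± 0.05 for Gkn2 and 0.04 ± 0.04 and -0.15 ± 0.06 for the 2 Gkn1 probe sets, with adjusted p of 0.723, 0.662 and 0.220. Against the saline-infused knockout all 3 also passed on the deposited scale, at -0.56 ± 0.11 for Gkn2, -0.61 ± 0.09 for the brighter Gkn1 probe set and -0.59 ± 0.11 for the dimmer one. None of the 3 passed there after quantile normalization, at -0.003, -0.01 and -0.08. Gkn2 ranked between 1 and 4 on all 12 arrays and the brighter Gkn1 probe set between 4 and 6, so quantile normalization could assign them few values.

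Psca encodes a small surface protein anchored by a lipid, and Ctse encodes cathepsin E, an intracellular aspartic protease. Psca read 38574, 45022 and 42529 in the double knockout, 60429, 56768 and 55641 in gastrin-infused knockouts, 67709, 67171 and 57066 in saline-infused knockouts and 54335, 60834 and 59909 in wild type. The brighter Ctse probe set read 36850, 42753 and 47777 in the double knockout, 61762, 57691 and 60639 in gastrin-infused knockouts, 64672, 66242 and 52357 in saline-infused knockouts and 59525, 63299 and 55352 in wild type. For both, every double-knockout array lay below every array of the other groups. Psca gave -0.47 ± 0.09 (adjusted p = 0.0292) for the double knockout against wild type and -0.60 ± 0.09 (adjusted p = 0.0096) against the saline-infused knockout. Ctse gave -0.49 ± 0.12 (adjusted p = 0.0548), which did not pass, and -0.53 ± 0.12 (adjusted p = 0.0363). Psca kept its call against wild type in 1 of the 6 fits with an array left out, the one without double-knockout replicate 2, and reached an adjusted p of 0.0859 in the others, while it passed in all 6 against the saline-infused knockout. Ctse lost its call against the saline-infused knockout without replicate 1 or 2 of either group (adjusted p up to 0.112). The quantile-normalized values against wild type were -0.03 ± 0.07 for Psca and -0.08 ± 0.08 for Ctse.

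**Figure D1:**
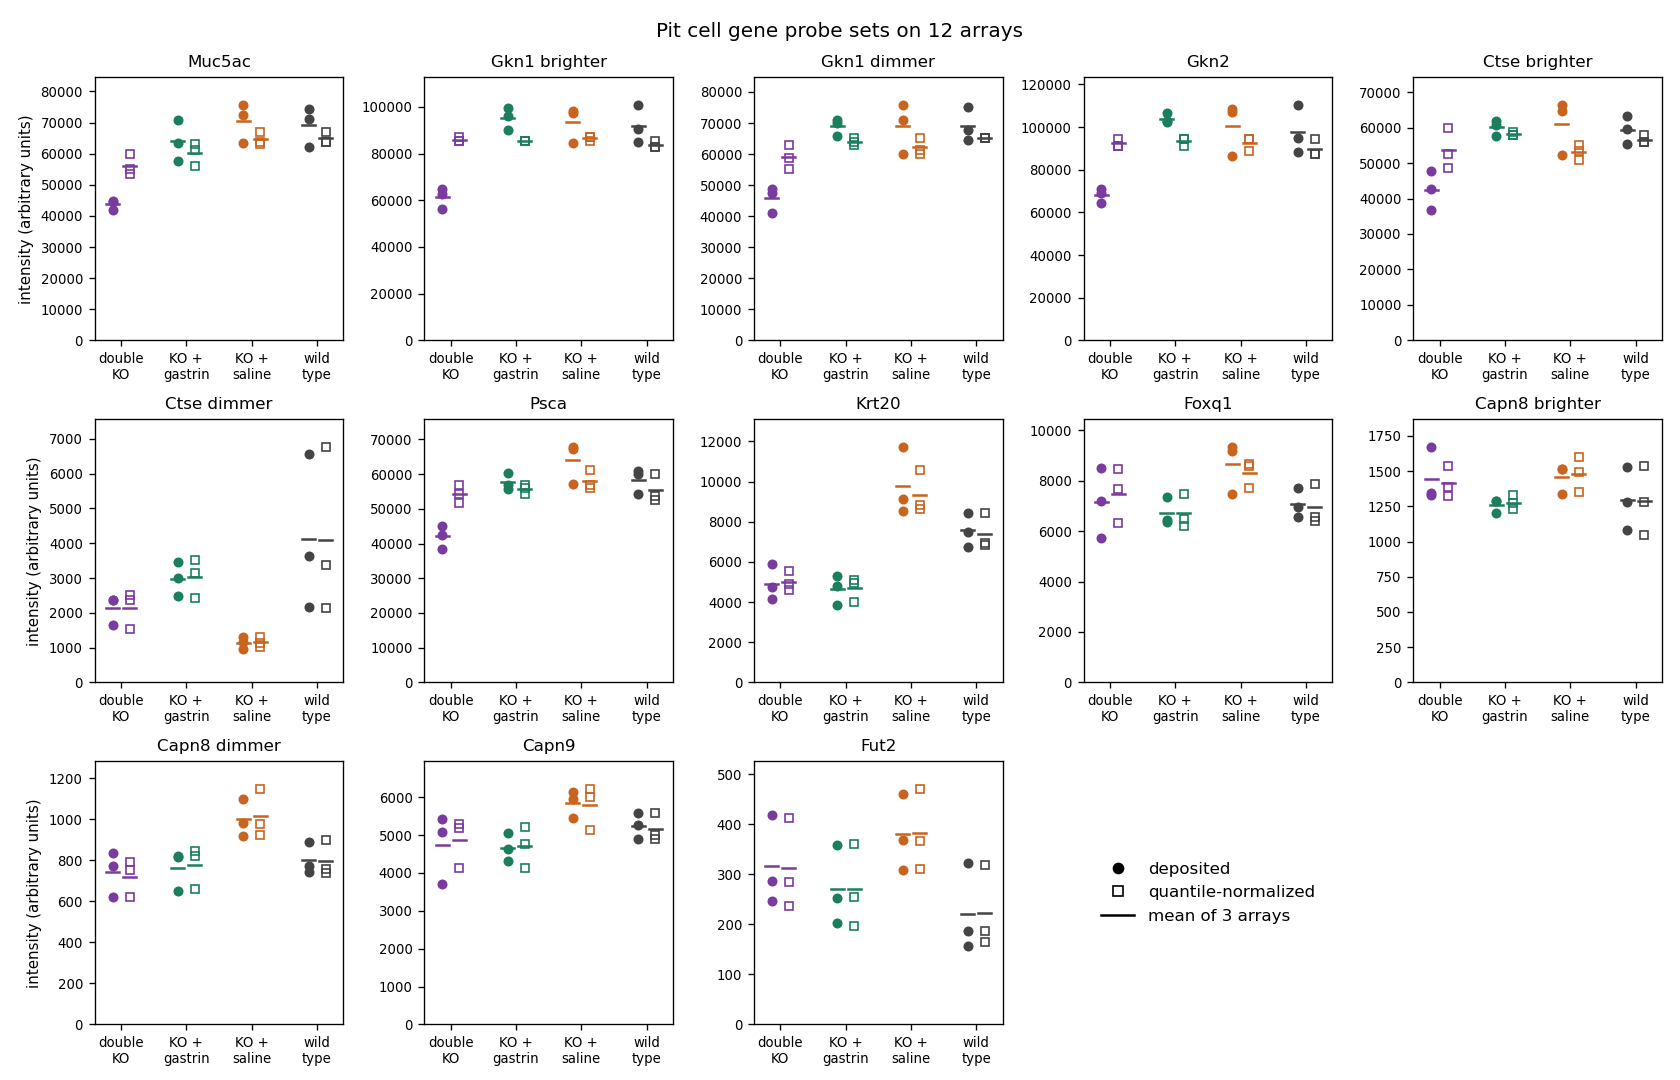
Intensity (vertical axis, arbitrary units, from 0) of the 13 probe sets in the double knockout, the gastrin-infused knockout, the saline-infused knockout and wild type. Filled circles are deposited values, open squares quantile-normalized values, 1 point an array, and bars are means of 3. The 6 brightest panels show double-knockout circles apart from the rest and squares that largely meet, while Krt20 keeps the same order of groups on both scales.

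In the double knockout against wild type, 5 of the 13 probe sets passed, all lower, where 4.14% of all probe sets passed in either direction and 2.12% passed as lower. The members' median log2 fold change was -0.49, and that of all probe sets was 0. With 1 array left out, 1 passed without wild-type replicate 1 or without double-knockout replicate 1. There were 2 without wild-type replicate 2, and 3 or 4 in the other fits. Calls over all probe sets fell as well in these fits, from 936 to between 323 and 613. Among the 19 other probe sets within the 25 brightest, 19 were lower, 11 passed as lower, and the median was -0.48, beside -0.55 for the 6 members. In the double knockout against the saline-infused knockout, 7 of 13 passed, all lower, where 5.98% of all probe sets passed in either direction and 2.76% as lower. With 1 array left out, 3 passed without saline-infused replicate 2 or without double-knockout replicate 1. There were 4 without saline-infused replicate 1, and 5 to 7 in the other fits. Calls over all probe sets fell here too, from 1352 to between 496 and 928. The 19 others had a median of -0.55, and 17 of them passed as lower, beside -0.60 for the 6 members. After quantile normalization 0 of 13 passed by limma in the double knockout against wild type (4.68% of all probe sets), with 3 at an unadjusted p under 0.05, as had 20.3% of all (Muc5ac, the dimmer Gkn1 probe set and Krt20). Against the saline-infused knockout 1 of 13 passed, Krt20 (6.52%). Cyclic loess, an intensity-dependent scaling chosen after the values were seen, gave the same counts of 0 and 1. Over all probe sets it called 823 and 1220, beside 936 and 1352 on the deposited scale. It left Muc5ac at -0.29 against wild type (adjusted p = 0.110). How much of the deposited difference belongs to the whole bright end of these arrays was not tested.

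**Figure D2:**
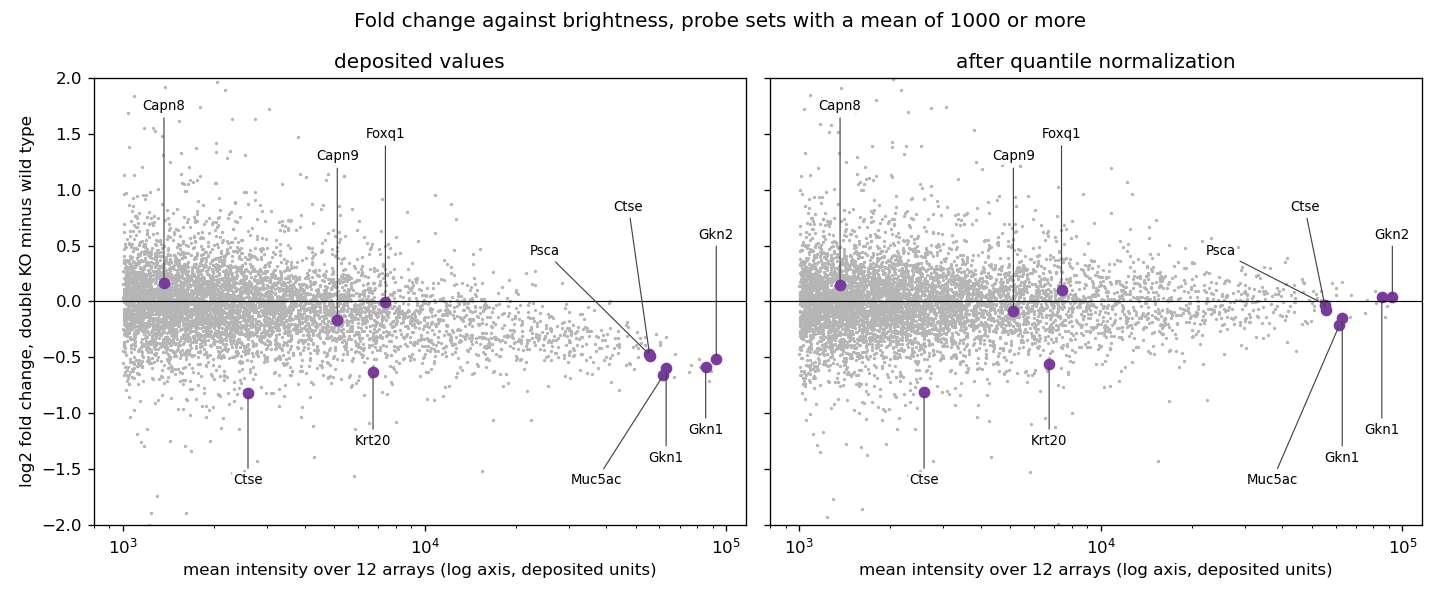
Log2 fold change of the double knockout over wild type (vertical axis) against mean intensity over 12 arrays (log axis, arbitrary units), for probe sets with a mean of 1000 or more, before (left) and after (right) quantile normalization. Purple points are pit cell probe sets and grey points the rest; the vertical axis stops at 2 log2 units either way. On the left the grey cloud sinks below 0 at the bright end together with Muc5ac, Gkn1, Gkn2, Ctse and Psca, and on the right it lies about 0, while Krt20 stays at -0.56.

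The 13 probe sets together made up 0.965% to 1.08% of an array's summed positive intensity in the double knockout. Their share was 1.34% to 1.37% in gastrin-infused knockouts, 1.28% to 1.44% in saline-infused knockouts and 1.32% to 1.38% in wild type. The mean intensity of the 100 brightest probe sets, 6 of them members, was also lowest in the double knockout. It averaged 36918 there, 49886 in gastrin-infused knockouts, 51510 in saline-infused knockouts and 49498 in wild type. Of the 94 that were not members, 93 were lower in the double knockout than in wild type (median log2 fold change -0.39, deposited scale). A lower level is thus not particular to these genes. Over the 12 arrays the 5 bright genes followed one another at Pearson r of 0.88 to 0.99 on the deposited scale, each by its brightest probe set, which all share the same arrays. The r of Gkn1 with Gkn2 was 0.99 on the deposited scale and 0.20 after quantile normalization. At ranks of 4 to 6 and 1 to 4 these 2 genes could take few values after it, so the 0.20 cannot tell whether they vary together. The genes most like Gkn1 and Gkn2 over the 12 arrays on the deposited scale were Clps, for pancreatic colipase, and Chia1, for a gastric chitinase (r of 0.99 in each case). Neither was among the nearest 2 after quantile normalization, where the same limit holds. For Muc5ac the nearest was the ribosomal protein gene Rpl41, at r of 0.99 on the deposited scale and 0.93 after quantile normalization, followed on the deposited scale by Rpl4 (0.98). On the deposited scale the nearest to Ctse were Clps and the elongation factor gene Eef1a1 (0.97 each), and to Psca Gsto1 and the carbonic anhydrase gene Car2 (0.97 each), and none of these 4 was among the nearest 2 after quantile normalization.

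Krt20 encodes a keratin of differentiated surface cells in stomach and intestine, and it was called on both scales in 2 comparisons. It read 4743, 5879 and 4150 in the double knockout, 5282, 4819 and 3848 in gastrin-infused knockouts, 9156, 11706 and 8534 in saline-infused knockouts and 8453, 7487 and 6763 in wild type. Every saline-infused array lay above every other array, every wild-type array lay above both the double knockout and the gastrin-infused knockout, and the last 2 groups overlapped. The means were 4924 ± 879 in the double knockout, 4650 ± 732 in gastrin-infused knockouts, 9799 ± 1681 in saline-infused knockouts and 7568 ± 848 in wild type (SD, n = 3 each).

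Gastrin infusion against saline infusion, the comparison that asks what replacing the hormone does in the knockout, gave Krt20 a log2 fold change of -1.07 ± 0.18 (adjusted p = 0.0329), a level 0.47 times the saline-infused one. It was the 1 pit cell probe set of 13 called, where 1.25% of all probe sets passed. After quantile normalization the value was -0.99 ± 0.13 (adjusted p = 0.0124, 1 of 13 called, 2.61% of all). On the deposited scale the call was lost with any 1 of the 6 arrays left out, at adjusted p between 0.0604 and 0.0864 and fold changes between -1.17 and -0.94. It was also lost when only the 2 groups entered the fit (adjusted p = 0.127). With the 3′/5′ ratio of the Gapdh control as a covariate, described further below, 0 of 13 were called, so Krt20 did not pass there either. On the quantile-normalized scale, in fits added after the values were seen, it passed with each of the 6 arrays left out, at adjusted p between 0.0303 and 0.0367.

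In the double knockout against the saline-infused knockout Krt20 gave -0.99 ± 0.18 (adjusted p = 0.0168), and -0.89 ± 0.13 after quantile normalization (adjusted p = 0.00873). With 1 array left out on the deposited scale it passed in 4 of 6 fits, and was lost without saline-infused replicate 2 or without double-knockout replicate 1, with a highest adjusted p of 0.0604. The double knockout against wild type gave -0.63 ± 0.18 (adjusted p = 0.0876) and the gastrin-infused knockout against wild type -0.71 ± 0.18 (adjusted p = 0.218). The saline-infused knockout against wild type gave 0.37 ± 0.18 (adjusted p = 0.321), so these 3 differences did not pass. No groups overlapped in them, as was so for 24.5%, 16.7% and 23.4% of all probe sets in these comparisons, in that order. These comparisons share arrays. Over the 4 groups at once Krt20 passed limma's F test on both scales, with an adjusted p of 0.0200 deposited and 0.0088 quantile-normalized. On the deposited scale 6 of the 13 probe sets passed that test, where 7.70% of all did (Krt20, Muc5ac, both Gkn1 probe sets, Gkn2 and Psca), and after quantile normalization 1 did, Krt20, where 9.60% of all did.

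The genes most like Krt20 over the 12 arrays were Slc23a3, of the ascorbate transporter family, and Mal, for a proteolipid of apical membrane transport, at r of 0.95 each on both scales. Slc23a3 read 535, 654 and 462 in the double knockout, 578, 488 and 535 in gastrin-infused knockouts, 845, 923 and 853 in saline-infused knockouts and 770, 727 and 751 in wild type. As these genes were picked for their likeness, their levels are given as a description.

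**Figure D3:**
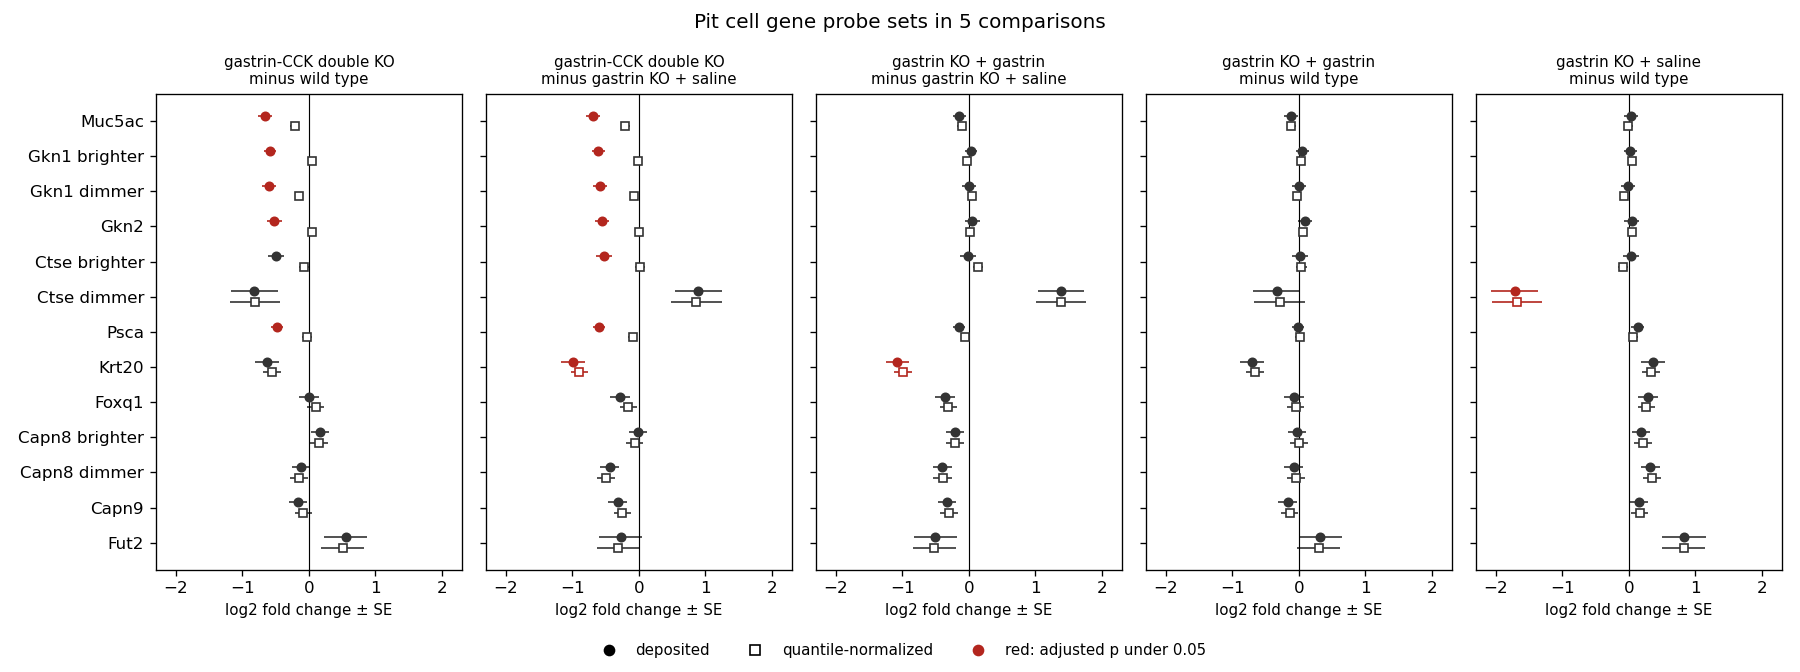
Log2 fold change ± SE (horizontal axis) of the 13 probe sets in 5 comparisons, named above each panel as the group on top minus the other, with circles for deposited and squares for quantile-normalized values. Red marks an adjusted p under 0.05. Red circles for the bright genes in the 2 double-knockout panels have black squares beside them near 0, whereas Krt20 is red on both scales in 2 panels.

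Tissue other than fundic epithelium also varied between the arrays on which Krt20 differed. Krt13, a keratin of the squamous forestomach, read 4929, 547 and 4986 in the double knockout, 301, 2822 and 485 in gastrin-infused knockouts, 5391, 1171 and 4370 in saline-infused knockouts and 1453, 666 and 462 in wild type. The saline-infused array highest in Krt20 was the lowest of its group in Krt13, and the 2 double-knockout arrays high in Krt13 were the lower 2 in Krt20. In wild type the 3 arrays stood in the same order in both genes, and in gastrin-infused knockouts the array highest in Krt13 was the middle one in Krt20. Of 14 forestomach genes listed, 11 were measured by 18 probe sets, whose summed level ran from 6790 to 36799 in the double knockout, 5122 to 20450 in gastrin-infused knockouts, 11842 to 40556 in saline-infused knockouts and 7307 to 17445 in wild type. The list's median log2 fold change was -1.20 for gastrin against saline infusion, with 2 probe sets lower and none higher, where 0.473% of all probe sets were called lower. These were of Ly6d, a surface protein gene of squamous cells (-1.63 ± 0.24), and Sfn, for an epithelial 14-3-3 protein (-1.42 ± 0.24). No keratin of the list was called there. On the saline-infused arrays Ly6d read 4627, 3787 and 4313 and Sfn 1530, 1944 and 2338, beside 5391, 1171 and 4370 for Krt13. Parietal cell genes (9 of 9 measured, 11 probe sets) had a median of 0.77 in that comparison, with 6 higher and none lower, where 0.773% of all probe sets were called higher. The 6 were of the proton pump gene Atp4a (0.61 ± 0.11), the potassium channel genes Kcnq1 (1.25 ± 0.24) and Kcne2 (0.90 ± 0.13), the anion exchanger gene Slc4a2 (0.77 ± 0.13), the water channel gene Aqp4 (0.94 ± 0.16) and the gastrin receptor gene Cckbr (1.56 ± 0.22). The other Cckbr probe set was not called, at 605 ± 179 with gastrin and 459 ± 55.8 with saline (SD), with overlap. Nor was the other Aqp4 probe set, at 599 ± 41.6 and 286 ± 70.6. Their part in the Krt20 difference was not tested. In bulk RNA of this kind fewer cells of a type and less RNA per cell cannot be told apart.

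**Figure D4:**
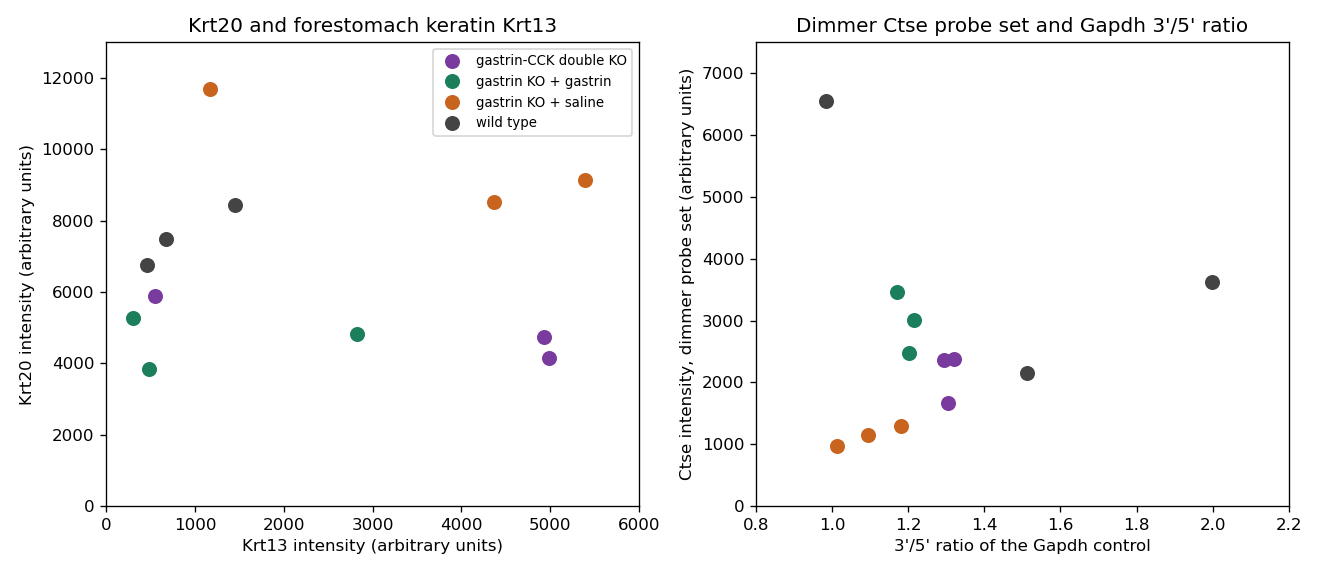
Left, Krt20 intensity (vertical axis) against that of the forestomach keratin gene Krt13 (horizontal axis), both in arbitrary units; right, intensity of the dimmer Ctse probe set against the 3′/5′ ratio of the Gapdh control on the same array. Each point is 1 of 12 arrays, coloured by group. The saline-infused arrays are highest in Krt20 at low and at high Krt13, and the wild-type arrays spread widest in the Gapdh ratio, from 0.98 to 2.00.

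The 2 Ctse probe sets gave different patterns. The dimmer one, of a class that the maker assigns to probes shared by several transcripts, read 2373, 1660 and 2359 in the double knockout, 2473, 3462 and 3012 in gastrin-infused knockouts, 1296, 1155 and 970 in saline-infused knockouts and 2156, 3628 and 6557 in wild type. All 3 saline-infused arrays lay below the other 9, and wild type spread the most. The saline-infused knockout against wild type gave -1.71 ± 0.35 (adjusted p = 0.0468), and -1.68 ± 0.38 after quantile normalization (adjusted p = 0.0489). It was the 1 member probe set of 13 called in that comparison, where 2.08% of all passed (3.29% after quantile normalization). The brighter Ctse probe set gave 0.03 ± 0.12 in the same comparison. The call on the dimmer one was lost in 5 of 6 fits with 1 array left out (adjusted p up to 0.124, fold changes between -2.11 and -1.30), all but the one without wild-type replicate 1, and with the Gapdh ratio as a covariate, where the fold change itself was further from 0 (-2.06, adjusted p = 0.0784). That ratio of 3′ to 5′ control signal, a measure of RNA integrity and labelling, ran from 1.29 to 1.32 in the double knockout, 1.17 to 1.21 in gastrin-infused knockouts, 1.01 to 1.18 in saline-infused knockouts and 0.98 to 2.00 in wild type. Gastrin against saline infusion gave 1.38 ± 0.35 for this probe set (adjusted p = 0.0965) and the double knockout against the saline-infused knockout 0.89 ± 0.35 (adjusted p = 0.180), and neither passed.

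Foxq1, both Capn8 probe sets, Capn9 and Fut2 passed by limma in none of the 5 comparisons on either scale. At an unadjusted p under 0.05 on the deposited scale were Foxq1, the dimmer Capn8 probe set and Capn9 for gastrin against saline infusion, the dimmer Capn8 probe set and Capn9 for the double knockout against the saline-infused knockout, and the dimmer Capn8 probe set and Fut2 for saline-infused knockouts against wild type. Such a p was found for 16%, 21.5% and 17.8% of all probe sets in these 3 comparisons. Foxq1 encodes a forkhead transcription factor that in mouse is required for Muc5ac expression in surface cells. It read 7209, 8518 and 5733 in the double knockout, 6443, 6349 and 7354 in gastrin-infused knockouts, 9191, 9319 and 7471 in saline-infused knockouts and 6556, 6970 and 7720 in wild type. The double knockout overlapped both of the groups it was tested against, and each gastrin-infused array lay below each saline-infused one (-0.36 ± 0.15, adjusted p = 0.281).

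Capn8 and Capn9 encode calpains of the stomach, calcium-dependent proteases that act together as a complex in pit cells. Capn9 read 5078, 5425 and 3711 in the double knockout, 4311, 5051 and 4644 in gastrin-infused knockouts, 6131, 5464 and 5947 in saline-infused knockouts and 5580, 5278 and 4892 in wild type. Its log2 fold change for gastrin against saline infusion was -0.33 ± 0.14 (adjusted p = 0.288), with no overlap. The dimmer Capn8 probe set averaged 742 ± 109 in the double knockout, 762 ± 98.5 in gastrin-infused knockouts, 999.7 ± 90.5 in saline-infused knockouts and 801 ± 78.4 in wild type (SD, n = 3 each), and gave -0.40 ± 0.14 for gastrin against saline infusion (adjusted p = 0.212). The brighter one averaged 1447 ± 192 in the double knockout, 1260 ± 49.4 in gastrin-infused knockouts, 1456 ± 102 in saline-infused knockouts and 1295 ± 224 in wild type, and gave -0.21 ± 0.13 (adjusted p = 0.516). Both probe sets were thus highest on average in saline-infused knockouts, without passing. The genes most like Capn8 were Gm33301 and Stx6 on both scales (r of 0.91 to 0.92). For Capn9 they were Cnppd1 (0.92) and Mtss1 (0.91), and for Foxq1 Grpel2 and Oasl1 (0.91 each), on the deposited scale alone.

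Fut2 encodes the enzyme that adds the terminal fucose of secreted blood group antigens to mucin glycans. It was the dimmest member, with 287, 418 and 247 in the double knockout, 252, 358 and 203 in gastrin-infused knockouts, 308, 461 and 369 in saline-infused knockouts and 186, 156 and 322 in wild type. Neighbouring groups in the order of means overlapped, and the widest fold change, found for saline-infused knockouts over wild type, came to 0.83 ± 0.32 (adjusted p = 0.226). The gene most like Fut2 was Ifngr2 on both scales (0.93 deposited and 0.95 quantile-normalized), with Ip6k1 next on the deposited scale (0.91).

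In the gastrin-infused knockout against wild type 0 of the 13 probe sets passed by limma on either scale, where 0.110% of all passed on the deposited scale and 0.225% after quantile normalization. At an unadjusted p under 0.05 there was 1 on each scale, Krt20, where 11.6% of all probe sets had such a p on the deposited scale and 12.5% after quantile normalization. For gastrin against saline infusion the groups did not overlap in 5 member probe sets that were lower (Krt20, Foxq1, both Capn8 and Capn9), where 10.3% of all probe sets were lower without overlap, and in 1 that was higher (the dimmer Ctse probe set), where 10.5% were. The members' median in that comparison was -0.15, beside 0 for all probe sets.

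Other genes of surface mucous cells were taken from a list of 14, of which 11 were measured by 19 probe sets. In the double knockout against wild type 5 of them fell and none rose, where 2.12% of all probe sets were called lower and 2.02% higher: Tff1, the trefoil peptide secreted with Muc5ac (-0.52 ± 0.11), both probe sets of the annexin gene Anxa10 (-0.51 ± 0.09 and -0.53 ± 0.12), and 1 each of the tetraspanin genes Tspan1 (-0.73 ± 0.13) and Tspan8 (-1.30 ± 0.14). After quantile normalization the list was mixed, with 3 probe sets called lower and 2 higher, where 2.25% and 2.43% of all were. Its median log2 fold change was -0.05 on the deposited scale and 0.18 after quantile normalization. Tff1 then stood at 0.03 and the brighter Anxa10 probe set at -0.13, and neither passed. The dimmer Anxa10 probe set (-0.49), Tspan1 (-0.63) and Tspan8 (-1.31) were the 3 called lower. The Tspan8 probe sets disagreed, since another gave 0.43 ± 0.12 on the deposited scale (adjusted p = 0.0899) and 0.54 after quantile normalization (adjusted p = 0.0224). Those of Tspan1 also differed in direction. The one that fell averaged 5704 ± 616 in the double knockout and 9417 ± 802 in wild type (SD, deposited scale), and the other 2714 ± 297 and 2247 ± 151.

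In the double knockout against the saline-infused knockout 7 probe sets of that list fell and 1 rose, where 2.76% of all were called lower and 3.22% higher. Those that fell were of Tff1, Anxa10 (both), Tspan8 (2), the epithelial transcription factor gene Elf3 (-0.44 ± 0.11) and the keratin gene Krt19 (-0.84 ± 0.14). The riser was a Tspan1 probe set (0.70 ± 0.13), not the one that fell against wild type. After quantile normalization 3 probe sets of the list were called lower and 1 higher, where 2.82% and 3.70% of all were. The list's median was -0.36 on the deposited scale and -0.01 after quantile normalization. In saline-infused knockouts against wild type 3 rose and none fell, where 0.707% of all were called higher. They were 2 of Tspan8 (0.58 ± 0.12 and 0.66 ± 0.13) and 1 of the gastric tight junction gene Cldn18 (0.61 ± 0.12). Gastrin against saline infusion gave 0 of 19 by limma on the deposited scale, 12 at an unadjusted p under 0.05 where 16% of all probe sets had one, with a median of -0.39. After quantile normalization 2 passed there, the dimmer Anxa10 probe set (-0.48) and 1 of Cldn18 (-0.45), both lower, where 1.05% of all were called lower.

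Of 21 genes for mucin glycans and fucose, the pathway in which Fut2 acts, 16 were measured by 24 probe sets. Gcnt3, for a branching enzyme of mucin glycans, fell with gastrin against saline infusion (2004 ± 248 against 3280 ± 160, -0.72 ± 0.13, adjusted p = 0.0388). Galnt7, for an enzyme that acts early in mucin glycosylation, rose on 1 of its 3 probe sets in the double knockout (5374 ± 598) and in saline-infused knockouts (5186 ± 189) against wild type (3724 ± 17.6), with adjusted p of 0.0192 and 0.0362. The others did not pass. They averaged 4870 ± 499 and 2317 ± 332 in the double knockout and 4210 ± 355 and 1896 ± 486 in wild type. In saline-infused knockouts they were lower than in wild type on average, at 3740 ± 255 and 1740 ± 94.0. No other probe set of the list passed by limma in any of the 5 comparisons on the deposited scale, and 5 to 9 of the 24 had an unadjusted p under 0.05 in each (9 in the double knockout against wild type, where 19.6% of all probe sets had one, and a share of 11.6% to 21.5% over the 5 comparisons). Of 11 genes of the wider calpain family, measured by 21 probe sets, Cast, for the inhibitor calpastatin, rose on 1 of its 2 probe sets in the double knockout against wild type (0.79 ± 0.17) and against the saline-infused knockout (1.14 ± 0.17). The other Cast probe set gave 0.02 ± 0.16 and -0.27 ± 0.16 in these comparisons, and did not pass. Of the 3 Capn7 probe sets 1 rose against wild type (0.35 ± 0.07), while the others gave 0.23 ± 0.11 and -0.17 ± 0.12 without passing. Against the saline-infused knockout 1 of 2 Capn6 probe sets rose (0.54 ± 0.13, the other 0.45 ± 0.35) and 1 of 2 Capn1 probe sets fell (-0.84 ± 0.13, the other -0.66 ± 0.66). No probe set of this family passed by limma in the other 3 comparisons, in which 5 to 8 of the 21 had an unadjusted p under 0.05, where the share of all probe sets was 11.6% to 17.8%.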

How the data were processed

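The authors deposited a table of 12 arrays with linear, whole-number intensities, some of them negative, which was used as it stood. The sources used here do not say how they were summarised, scaled and background-corrected. The table has 22690 probe sets, and 64 controls were dropped. Gene symbols came from the platform annotation: 20380 probe sets had 1 symbol, 691 several and 1555 none. Values under 16 were raised to 16 (7.57% to 8.47% of an array) and log2 values fitted with limma 3.58.1 in R 4.3.3, with a mean per group over 12 arrays, 5 contrasts, an F test over the 4 groups and Benjamini-Hochberg adjustment over 22626 probe sets, threshold 0.05. The number of arrays limits the precision. The same fit was made after quantile normalization of all arrays. The code was tested on simulated data. Members, gene lists and comparisons were chosen with earlier results of these data known, and the motifs after the promoter sequences had been seen. All member probe sets are named, with the called genes of the lists in the comparisons described and the 2 genes most alike to a member by Pearson r on the deposited scale. Figures were drawn with matplotlib 3.10.9 in Python 3.11.15.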

Additional observations from a re-analysis of the deposited data

How the results depend on the processing

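With 3 arrays a group, the number of arrays limits the precision, and the lower bright end of the double-knockout arrays bears on Muc5ac, Gkn1, Gkn2, Psca and the brighter Ctse probe set. The causes of the changes below were not tested, except that fits with fewer arrays or fewer probe sets differ by construction. The number of pit cell probe sets called, of 13, was 5 in the double knockout against wild type, 7 against the saline-infused knockout, 1 for gastrin against saline infusion, 1 in saline-infused knockouts against wild type, 0 in the gastrin-infused knockout against wild type and 6 for any difference. Quantile normalization and cyclic loess, the last chosen after seeing the data, gave 0, 1 and 1 for the double knockout against wild type, the double knockout against the saline-infused knockout and any difference. The count for saline-infused knockouts against wild type was 0 after median centring, with the Gapdh ratio as a covariate and with only the 2 groups in the fit. The count for gastrin against saline infusion was 0 with the Gapdh covariate and with only the 2 groups, and 2 with bright probe sets only. With only the 2 groups both double-knockout counts were 0. With 1 array left out the counts ran from 1 to 4 in the double knockout against wild type, 3 to 7 against the saline-infused knockout, 0 in each fit for gastrin against saline infusion, 0 to 1 in saline-infused knockouts against wild type and 1 to 7 for any difference.

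Over all probe sets, the double knockout against wild type called 936, with 607 under the Gapdh covariate, 43 with only the 2 groups and 323 to 613 with an array left out. The double knockout against the saline-infused knockout called 1352, with 208 from only the 2 groups and 496 to 928 with an array left out. Gastrin against saline infusion called 282, with 590 after quantile normalization, 705 with bright probe sets only, 432 with a trended prior, 476 after cyclic loess, 152 with the covariate, 20 with only the 2 groups and 67 to 137 with an array left out. Saline-infused knockouts against wild type called 470, with 744 after quantile normalization, 827 with bright probe sets only, 47 with the covariate, 22 with only the 2 groups and 94 to 285 with an array left out. The gastrin-infused knockout against wild type called 25, with 51 after quantile normalization, 62 with a floor of 64, 74 with bright probe sets only, 52 with a trended prior, 44 after cyclic loess, 12 with the covariate, 3 with only the 2 groups and 13 to 43 with an array left out. Any difference called 1742, and 706 to 1299 with an array left out.

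Deviations from the group means correlated above 0.1 in 5 of 18 same-numbered pairs of arrays (r of -0.357 to 0.506). They did so in 14 of 36 pairs with other numbers (-0.380 to 0.424). Whether arrays of the same number were handled together was not tested. A replicate block gave 239 calls in saline-infused knockouts against wild type, 140 for gastrin against saline infusion and 8 in the gastrin-infused knockout against wild type, and 0 pit cell calls in saline-infused knockouts against wild type.

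Of 66 changes of sign among the members' log2 fold changes, 3 were of called values, all under quantile normalization, where the double knockout gave 0.042 for the brighter Gkn1 probe set and 0.043 for Gkn2 against wild type, and 0.013 for the brighter Ctse probe set against the saline-infused knockout. The other 63 were of values called in neither fit. Under quantile normalization these were Foxq1 in the double knockout against wild type (0.10), the brighter Gkn1 (-0.022) and Ctse (0.13) probe sets for gastrin against saline infusion, Psca (0.0091) and the brighter Capn8 (0.0044) in the gastrin-infused knockout against wild type, and Muc5ac (-0.0067) and the brighter Ctse (-0.093) in saline-infused knockouts against wild type. With the Gapdh covariate they were the brighter Capn8 (0.038) and Fut2 (0.0013) in the double knockout against the saline-infused knockout, both Gkn1 probe sets (-0.0034 and -0.027) for gastrin against saline infusion, and the dimmer Gkn1 in the gastrin-infused (0.068) and saline-infused (0.095) knockouts against wild type. After cyclic loess they were Foxq1 in the double knockout against wild type (0.13), the brighter Ctse for gastrin against saline infusion (0.062), the brighter Capn8 in the gastrin-infused knockout against wild type (0.015), and Muc5ac (-0.060), the brighter Gkn1 (-0.076), Gkn2 (-0.062) and the brighter Ctse (-0.047) in saline-infused knockouts against wild type. With 1 array left out, the double knockout against wild type ran from -0.14 to 0.15 for Foxq1, -0.21 to 0.0051 for the dimmer Capn8 and -0.27 to 0.0017 for Capn9, and against the saline-infused knockout from -0.12 to 0.044 for the brighter Capn8. Gastrin against saline infusion ran from -0.041 to 0.071 for the brighter and -0.089 to 0.078 for the dimmer Gkn1, -0.053 to 0.11 for Gkn2 and -0.13 to 0.044 for the brighter Ctse. The gastrin-infused knockout against wild type ran from -0.0031 to 0.12 and -0.050 to 0.060 for the brighter and dimmer Gkn1, -0.033 to 0.064 and -0.72 to 0.079 for the brighter and dimmer Ctse, -0.068 to 0.013 for Psca, and -0.15 to 0.10 and -0.14 to 0.036 for the brighter and dimmer Capn8. Saline-infused knockouts against wild type ran from -0.049 to 0.099 for Muc5ac, -0.034 to 0.094 and -0.079 to 0.088 for the brighter and dimmer Gkn1, -0.032 to 0.15 for Gkn2 and -0.027 to 0.14 for the brighter Ctse.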
